A study of Mus musculus with 5 samples.

Results

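The immunoproteasome and antigen processing genes described here are Psmb8, Psmb9, Psmb10, Psme1, Psme2, Tap1 and Tap2, 7 of the 21887 protein-coding genes that the RefSeq annotation places on the assembled mouse chromosomes. They were chosen by name after the peak positions in these same lists were known, so their peaks are given as a description, with no test. Each was given every peak that overlapped its gene body or the 3000 bp on either side. The peaks come from CUT&RUN, where an antibody brings a nuclease to the protein or histone mark it binds and the DNA cut free there is sequenced, on 100000 dissociated cells of mouse fetal testis per library. An antibody against CREB, a transcription factor activated by cAMP signalling, was used at the embryonic stages E13.5, E16.5, E18.5 (days of gestation), and an antibody against H3K4, whose methylation state the labels do not give, at E18.5. The labels give no strain, genotype or treatment for any of these 4 libraries. Each antibody and stage has 1 library, so nothing below has a replicate check, and no difference between stages was tested.

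The proteasome degrades cytosolic proteins. In immune cells, and in other cells after interferon, the catalytic subunits of its core can be replaced by the inducible subunits encoded by Psmb8, Psmb9 and Psmb10, which changes the peptides it releases. Psme1 and Psme2 encode the alpha and beta subunits of PA28, a cap that opens the core, and Tap1 and Tap2 encode the subunits of the transporter that carries peptides into the endoplasmic reticulum, where MHC class I molecules bind them. CREB is known to bind the cAMP response element (CRE), a palindrome whose core is TGACG, whereas the interferon-stimulated response element (ISRE) and the GAS element are bound by interferon-activated factors.

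Among the 7 genes, CREB peaks lay at Psmb8, Psmb9, Tap1 and Psme2, and these 4 genes had a peak in the E13.5, the E16.5 and the E18.5 list alike. Psmb10, Psme1 and Tap2 had no CREB peak at any stage, as had 79.5% of protein-coding genes. All 7 genes had an H3K4 peak. The same window held a CREB peak in 4.82% of protein-coding genes at E13.5, then 18.3% at E16.5 and then 15.6% at E18.5, an H3K4 peak in 63.1%, and CREB peaks of all 3 stages in 4.66%. Of the 4481 protein-coding genes with a CREB peak at any stage, 1021 (22.8%) had one at all 3. Because neighbouring genes share peaks, the 15 pairs of a gene and a CREB peak came from 9 distinct peaks, which formed 3 regions. Each of the 3 regions held 1 peak of every CREB list, and the windows held 7 distinct H3K4 peaks.

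The letters of these places come from RefSeq promoter windows on build GRCm38.p6 (the coordinates of mm10), which run from 250 bases before to 50 after a gene's start and were held for 6 of the 7 genes. The stretches below are printed because they hold the matches to the CRE core, ISRE or GAS in those windows. The first runs from 100 bases before the Tap1 start to 50 after it (chr17:34187456-34187605, plus strand), with the CRE core in capitals. The next (chr14:55591049-55591265, minus strand, the Psme2 strand) runs from just upstream of the CRE core, in capitals, to the far edge of the E18.5 CREB peak at Psme2. The third covers the same distances around the Psme1 start (chr14:55578394-55578543, plus strand), with an ISRE match in capitals. The last does so at Psmb8 (chr17:34198095-34198244, plus strand), with a GAS match in capitals.
Tap1: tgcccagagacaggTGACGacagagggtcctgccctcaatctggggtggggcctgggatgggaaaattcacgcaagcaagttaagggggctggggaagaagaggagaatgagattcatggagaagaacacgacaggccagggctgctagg
Psme2: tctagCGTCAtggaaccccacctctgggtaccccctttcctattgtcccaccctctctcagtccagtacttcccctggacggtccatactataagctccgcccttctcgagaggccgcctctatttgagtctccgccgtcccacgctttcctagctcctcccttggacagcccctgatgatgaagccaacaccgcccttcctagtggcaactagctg
Psme1: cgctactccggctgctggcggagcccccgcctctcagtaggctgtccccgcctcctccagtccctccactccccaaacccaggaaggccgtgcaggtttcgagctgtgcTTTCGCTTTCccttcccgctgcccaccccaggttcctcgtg
Psmb8: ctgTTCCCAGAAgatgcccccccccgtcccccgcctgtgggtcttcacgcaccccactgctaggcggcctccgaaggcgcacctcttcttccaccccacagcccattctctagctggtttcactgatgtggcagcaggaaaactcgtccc

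**Figure D1:**
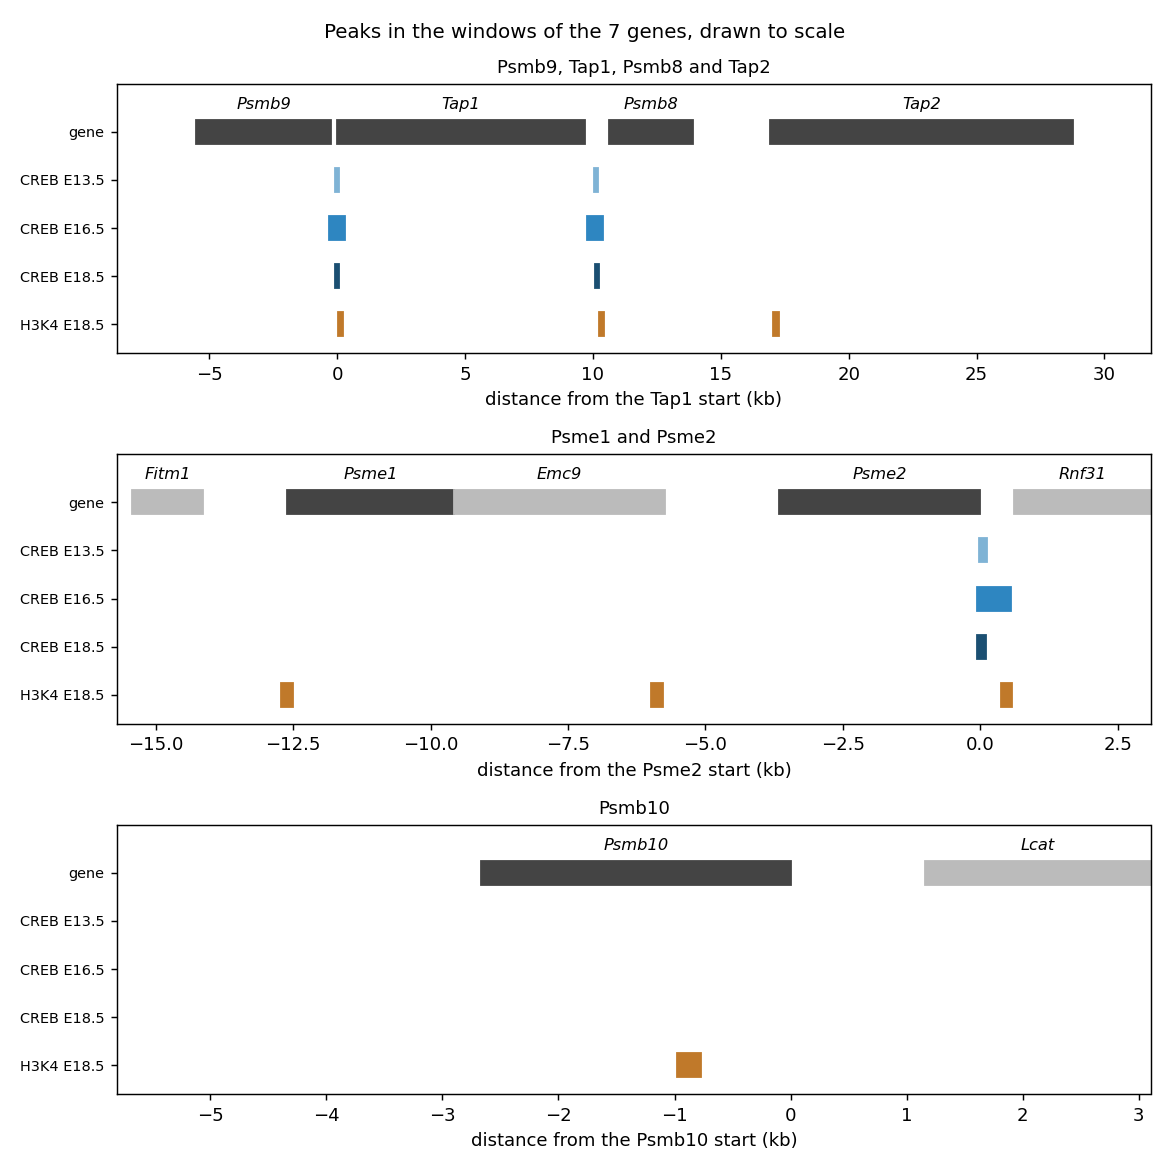
Peaks of the 4 lists in the windows of the 7 genes, with distance from the start of Tap1, Psme2 or Psmb10 in kb on the x axis and a row for each list; dark bars are the 7 genes and grey bars other genes. CREB marks stand between Psmb9 and Tap1, between Tap1 and Psmb8 and at the Psme2 start, and every gene has an H3K4 mark in its window.

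Of the 7 genes, 4 lie side by side on chromosome 17, within the MHC, in a span of 34292 bp. Psmb9 (chr17:34182030-34187330, minus strand) and Tap1 (chr17:34187556-34197225, plus strand) point away from each other, with 225 bp between them. The gap from Tap1 to Psmb8 (chr17:34198195-34201454, plus strand) is 969 bp, and that from Psmb8 to Tap2 (chr17:34204479-34216321) is 3024 bp. The annotation used here gives the outer ends of genes without exons, so no exon, intron or UTR is stated for any peak.

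The first region lay between the genes of an inducible catalytic subunit, Psmb9, and of a subunit of the peptide transporter, Tap1. Its CREB peak was at chr17:34187474-34187623 at E13.5, then chr17:34187230-34187859 at E16.5 and then chr17:34187478-34187637 at E18.5. All 3 lists shared 146 bp (chr17:34187478-34187623). The midpoints of these peaks lay 8 and 12 bp upstream of the Tap1 start at E13.5 and E16.5, and 1 bp inside Tap1 at E18.5. From the Psmb9 start they were 218, 214 and 227 bp upstream at E13.5, E16.5, E18.5 in turn. The midpoints of the 3 stages thus fell within 13 bp of each other, although the E16.5 peak, like nearly all of its list, was 630 bp wide and those of E13.5 and E18.5 were 150 and 160 bp wide. Only the E16.5 peak reached into the Psmb9 gene body. No further annotated gene had this region in its window.

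The H3K4 peak of this region (chr17:34187590-34187799) stood on the Tap1 side. Its midpoint was 138 bp inside Tap1 and 364 bp upstream of the Psmb9 start. It overlapped the CREB peak by 34 bp at E13.5, then 210 bp at E16.5 and then 48 bp at E18.5, and the distance between midpoints was 146, 150 and 137 bp. This was the only region of the 3 in which every CREB peak touched an H3K4 peak.

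The second region lay between the far end of Tap1 and the start of Psmb8, which encodes the inducible subunit that takes the place of Psmb5. Its CREB peaks were at chr17:34197597-34197746 (E13.5), chr17:34197334-34197963 (E16.5) and chr17:34197652-34197811 (E18.5), with 95 bp in all 3 lists. Their midpoints lay 524, 547 and 464 bp upstream of the Psmb8 start, and 446, 423 and 506 bp beyond the end of Tap1. The region was about as far from one gene as from the other, and none of its CREB peaks touched either gene body. The E16.5 peak alone reached into the promoter window of Psmb8, whose first base is chr17:34197945. An H3K4 peak (chr17:34197774-34197983) had its midpoint 317 bp upstream of Psmb8. It overlapped the E16.5 and E18.5 CREB peaks by 190 and 38 bp, whereas the E13.5 CREB peak ended 27 bp short of it. The H3K4 midpoint was on the Psmb8 side, 207, 230 and 147 bp from the CREB midpoints.

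Tap2, the other transporter subunit, had an H3K4 peak and no CREB peak. The H3K4 peak (chr17:34204603-34204812) lay inside the gene, with its midpoint 228 bp from the lower end. The nearest CREB peaks were those between Tap1 and Psmb8, whose edges were 6733, 6516 and 6668 bp from Tap2 at E13.5, E16.5, E18.5 in turn. The next CREB peaks outside the 4 genes were 46440, 28601 and 28853 bp away at lower coordinates and 45331, 46514 and 41255 bp away at higher ones.

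**Figure D2:**
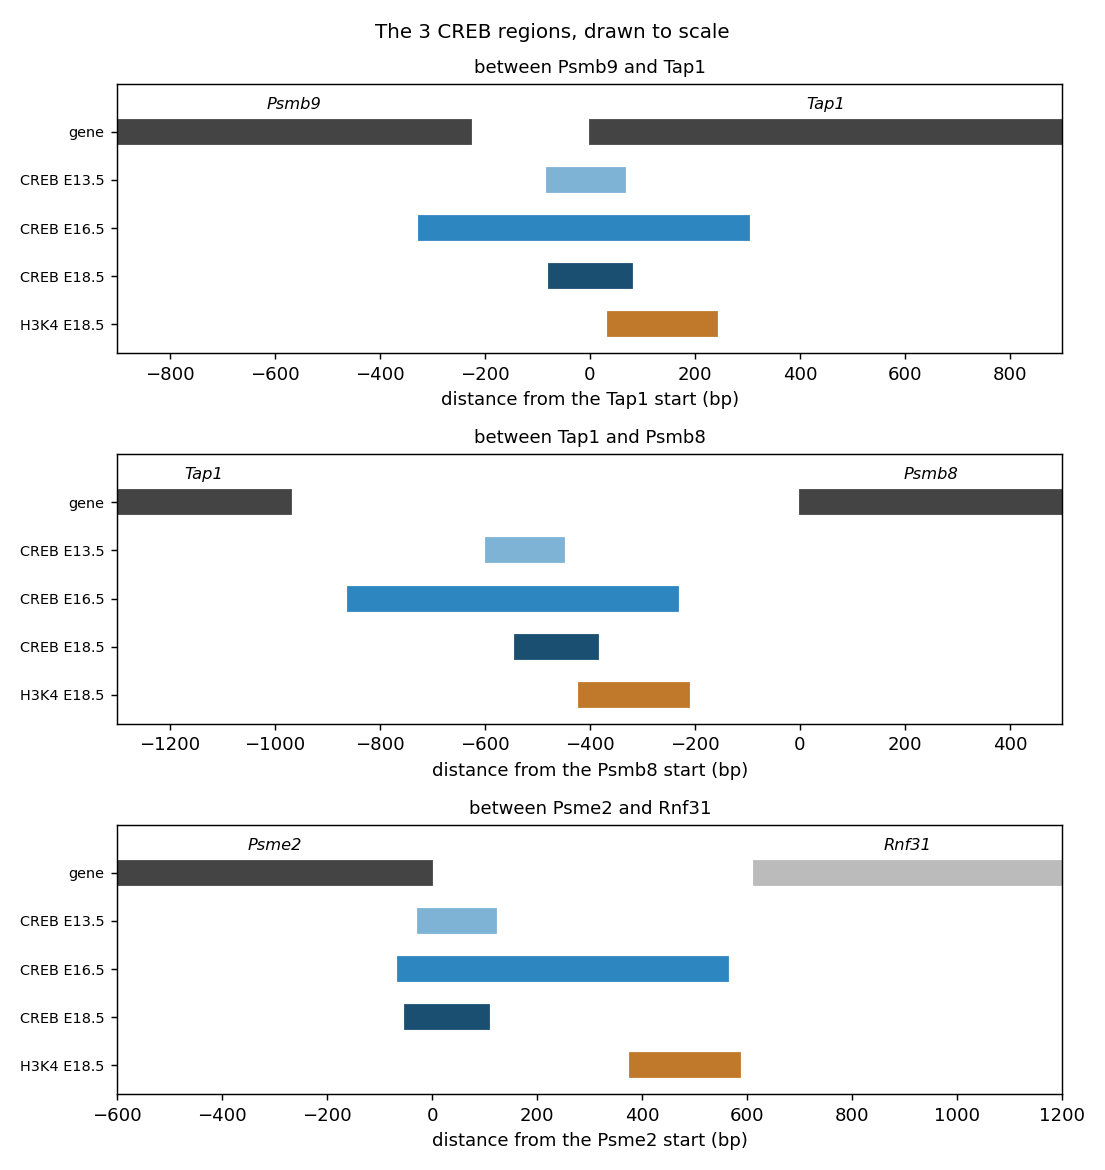
The 3 CREB regions at base-pair scale, with distance from the start of Tap1, Psmb8 or Psme2 in bp on the x axis and a row for each list. The CREB marks straddle the Tap1 start, lie 464 to 547 bp (midpoints) before the Psmb8 start, and lie at the Psme2 start, and the H3K4 midpoint is to the right of all CREB midpoints in each panel.

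The PA28 genes lie on chromosome 14 with 5912 bp between them, and CREB peaks were at Psme2 and not at Psme1. Psme2 (chr14:55587440-55591101, minus strand) had CREB peaks at chr14:55591074-55591223 (E13.5), chr14:55591035-55591664 (E16.5) and chr14:55591049-55591208 (E18.5). Their midpoints lay 47, 248 and 27 bp upstream of the outer Psme2 start. RefSeq holds another Psme2 start further in, at position 55591021, and all 3 peaks overlapped the promoter window of both starts. The lists shared 135 bp. The E16.5 midpoint stood 201 bp from that of E13.5 and 221 bp from that of E18.5, since the wide peak extended towards Rnf31 and covered both narrow ones whole.

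Rnf31, which encodes a subunit of the linear ubiquitin assembly complex, points away from Psme2 and had the same peaks in its window. The CREB midpoints lay 565, 364 and 585 bp from its outer end on the start side at E13.5, E16.5, E18.5 in turn. Those of E13.5 and E18.5 were thus much nearer to Psme2. The H3K4 peak of this place (chr14:55591477-55591686) was on the Rnf31 side instead, 132 bp from Rnf31 and 480 bp from Psme2. It overlapped the E16.5 CREB peak by 188 bp and was 253 and 268 bp clear of those of E13.5 and E18.5. A further H3K4 peak in the Psme2 window (chr14:55585121-55585330) lay 2215 bp beyond its far end, inside Emc9, which encodes a subunit of the membrane protein insertion complex EMC, and its nearest CREB midpoint was 5903 bp away, at E18.5. It was the peak nearest to the edge of the 3000 bp limit among those counted.

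Psme1 (chr14:55578494-55581527, plus strand) had its H3K4 peak (chr14:55578386-55578595) centred 4 bp before its start. Fitm1 and Emc9 also had this peak in their windows. The nearest CREB peaks were those of Psme2, 9547, 9508 and 9522 bp from Psme1. No counted CREB peak came near the 3000 bp limit, the edge farthest from its gene being 449 bp from Psmb8, at E13.5, and the closest peak left uncounted was that 6516 bp from Tap2, at E16.5.

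Psmb10 (chr8:105935728-105938392, minus strand), which encodes the third inducible subunit, lies on chromosome 8, apart from the other genes described here. Its H3K4 peak (chr8:105937412-105937621) was inside the gene, with its midpoint 876 bp from the start, and did not touch the promoter window. Lcat also had this H3K4 peak in its window. The nearest CREB peak was 234429 bp from Psmb10 at E13.5, then 35038 bp at E16.5 and then 35274 bp at E18.5. The read depth behind the lists is unknown, so a gene with no listed CREB peak is not shown to lack CREB.

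The place of a peak in its list differed between the regions. The files hold no score and no source used here says what their order means, so the positions are given as they stand. The peak between Psmb9 and Tap1 was number 59 of 862 at E13.5, 84 of 3528 at E16.5, 189 of 2957 at E18.5, which is the first 6.84%, 2.38% and 6.39% of the lists. The Psme2 peak was number 541, 109 and 121, or 62.8%, 3.09% and 4.09% of the way down. The peak between Tap1 and Psmb8 was number 691, 344 and 2191, or 80.2%, 9.75% and 74.1%. The Psmb9 and Tap1 peak was thus early in all 3 lists, the Psme2 peak late at E13.5 alone, and the Tap1 and Psmb8 peak late at E13.5 and E18.5. In the H3K4 list the peaks at Psme2 and Psmb10 were early, number 476 and 737 of 21211, that between Tap1 and Psmb8 was number 14661, and the other 4 were between 4294 and 6954.

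**Figure D3:**
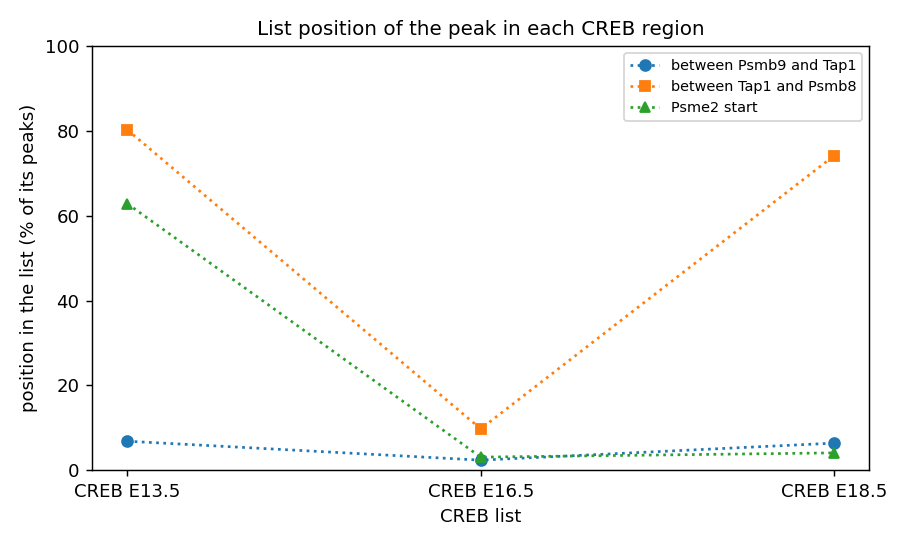
Position of the peak of each CREB region in its list, as a percentage of the peaks in that list (y axis; a low value is early), for the 3 CREB lists by stage (x axis). The peak between Psmb9 and Tap1 stays between 2.38% and 6.84%, whereas that between Tap1 and Psmb8 is at 80.2%, 9.75% and 74.1%.

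None of the promoter windows held for the 6 genes had the full CRE palindrome TGACGTCA, which was in 1.79% of the 32851 windows of the table and in 16.1%, 11.4% and 10.3% of those overlapped by a CREB peak at E13.5, E16.5, E18.5 in turn. The core TGACG, sought on both strands and also part of the palindrome, occurred at 2 places in the windows of the 6 genes. These were 1 in each of the CREB regions at Psmb9 and Tap1 and at Psme2. The windows there cover chr17:34187281-34187605 and chr14:55590972-55591351, so parts of both regions lie outside them and this is not a full count. The core was in 20.8% of all windows and in 76.4%, 60.8% and 62.2% of those with a CREB peak. Where the windows of Psmb9 and Tap1 overlap, the core (chr17:34187470-34187474) began 86 bp before the Tap1 start and 144 bp before the Psmb9 start. It lay inside the E16.5 peak, shared its last base with the E13.5 peak and was 4 bp from the edge of the E18.5 peak. At Psme2 the core (chr14:55591256-55591260) lay inside the E16.5 peak as well, and was 33 and 48 bp from the edges of the E13.5 and E18.5 peaks. Both cores were thus outside the E18.5 peak. The windows held only 128 of the 160 bp of the E18.5 peak between Psmb9 and Tap1, so the rest of it was not searched. Of the E18.5 peaks that promoter windows cover whole, 47.2% (593 of 1257) held the core themselves, and of those covered with 50 bp on each side 65.3% (399 of 611) held it there; at E13.5 these shares were 61.2% (229 of 374) and 80.3% (171 of 213).

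The ISRE core, taken as GAAA and, after any 2 bases, GAAA again on either strand, was found at Psme1 alone. It began 9 bp after the start, at chr14:55578503-55578512, inside the H3K4 peak. The GAS core TTCNNNGAA, which reads alike on both strands, was found at Psmb8 alone, 97 bp before the start and in no peak of any list. These cores were in 3.44% and 8.30% of all promoter windows. The window of Psmb10, which no peak of any list touched, held none of the 4 motifs. The place of its H3K4 peak, centred 876 bp inside the gene, was not searched. These are matches of letters and not sites shown to be used, and most of the CREB region between Tap1 and Psmb8 lies outside the windows searched.

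The constitutive subunits that the inducible ones replace were set beside them. Psmb5, the counterpart of Psmb8, had CREB peaks at E13.5 and E18.5 (number 376 and 328 of their lists), with midpoints 159 and 144 bp before its start, and its nearest E16.5 peak was 68454 bp away. Psmb6, the counterpart of Psmb9, had one at all 3 stages, with midpoints 33, 10 and 73 bp before its start. Psmb7, the counterpart of Psmb10, had none, the nearest being 282327 bp away, at E16.5. Counting a peak at any stage, both genes of the pairs Psmb8 with Psmb5 and Psmb9 with Psmb6 had a CREB peak and neither gene of the pair Psmb10 with Psmb7 did, though by stage Psmb5 differed from Psmb8 at E16.5. With 3 pairs this is a description and was not tested. All 6 genes had an H3K4 peak, as had 63.1% of protein-coding genes. Among other activator and assembly genes, Psme3, which encodes the nuclear proteasome activator PA28 gamma, had a CREB peak at every stage, 153, 154 and 145 bp before its start, while Psme4, an activator gene, and Pomp, which encodes a core assembly factor, had H3K4 peaks only.

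Of the 29 further genes of the pathway, in 5 lists, 4 (13.8%) had a CREB peak at E13.5, then 14 (48.3%) at E16.5 and then 14 (48.3%) at E18.5. Among protein-coding genes these shares were the 4.82%, 18.3% and 15.6% given above. An H3K4 peak was at 28 of the 29 (96.6%), beside 63.1% of protein-coding genes. With each list held to its first 862 peaks, the CREB counts were 4, 2 and 5, so the stages are not ranked by them. Of the 6 peptide loading genes, 1, 3 and 3 had a CREB peak at E13.5, E16.5, E18.5 in turn. Pdia3, an oxidoreductase of the loading complex, had one 65 bp before its start at E16.5 and E18.5. Canx, the chaperone calnexin, had peaks at its start at the same stages (124 and 65 bp upstream) and none there at E13.5. Beyond its far end it had a peak in all 3 lists, 1476, 1508 and 1520 bp away at E13.5, E16.5, E18.5 in turn. Calr, the chaperone calreticulin, had a peak 117 bp before its start at E18.5, whereas its E16.5 peak was 1295 bp beyond its far end. Tapbp, which encodes the tapasin that bridges transporter and class I molecule, had 4 H3K4 peaks and no CREB peak. Of these H3K4 peaks 1 lay 350 bp after its start, and the others lay 422, 780 and 1332 bp beyond its far end. Tapbpl and the peptidase gene Erap1 had H3K4 peaks only.

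The class I chains themselves had no CREB peak at E13.5. B2m, which encodes their light chain, had one 44 bp before its start at E16.5 and 140 bp before it at E18.5. The heavy chain gene H2-D1 had one at E16.5 and E18.5, 120 and 180 bp upstream. H2-K1 had one at E18.5 alone, 36 bp upstream of its nearest RefSeq start and number 2918 of 2957. Class I heavy chain genes resemble one another closely, so reads may have been placed at the wrong copy and these peaks are uncertain. Of the 14 regulators, none had a CREB peak at E13.5, where 4.82% of protein-coding genes had one, 7 did at E16.5, beside 18.3%, and 5 at E18.5, beside 15.6%. Rfx5 and Rfxank, which encode subunits of the RFX complex at MHC promoters, Ifngr1, a receptor chain for interferon gamma, and the kinase gene Jak1 had one within 155 bp of a start at E16.5 and E18.5. Irf8, a leukocyte transcription factor gene, had one at both of these stages inside the gene, 4453 and 4484 bp from its far end. The nearest RefSeq start of Irf8, which lies further in than the outer one, was 13602 and 13571 bp away. The interferon-response genes Irf1 and Stat2 had one at E16.5 alone. Nlrc5, which encodes the class I transactivator, Irf2, Irf9, Jak2 and Rfxap had H3K4 peaks and no CREB peak, and Ifngr2 had neither.

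**Figure D4:**
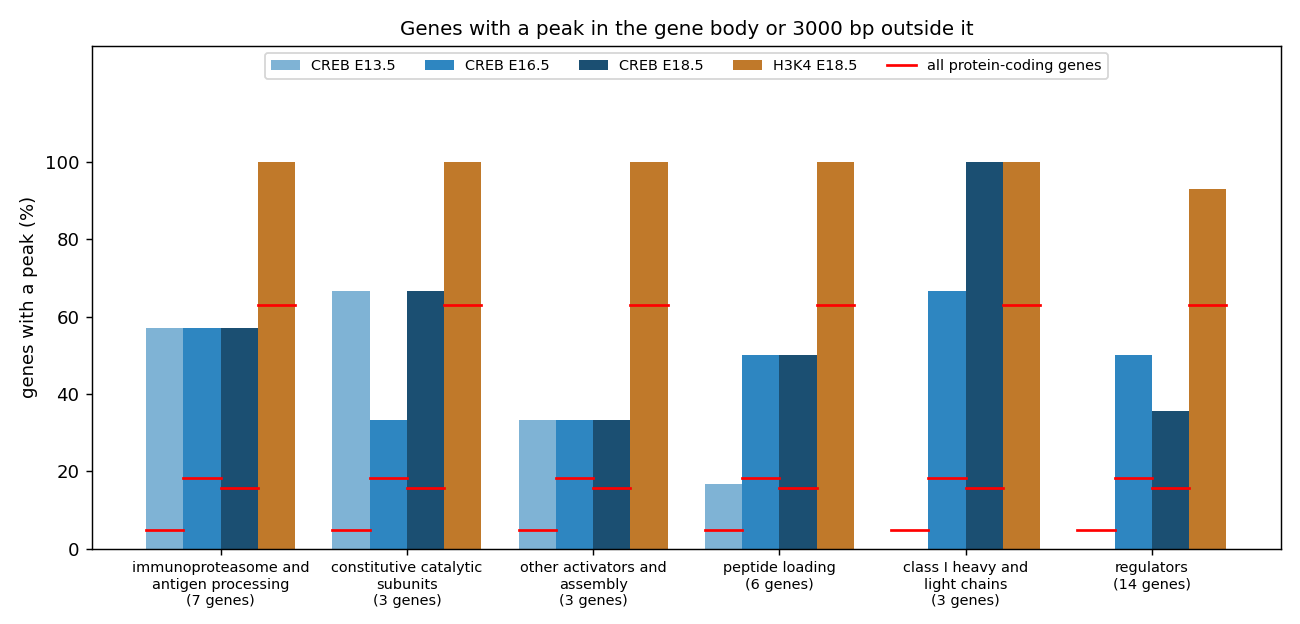
Share of the genes of each group with a peak in the gene body or 3000 bp outside it (y axis, %), with a bar for each list and a red line at the share among all protein-coding genes. The 3 CREB bars of the immunoproteasome and antigen processing genes stand at 4 of 7 genes each, from 3 shared regions, and every group except the regulators has an H3K4 peak at all of its genes.

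By presence in the 4 lists, Psmb8, Psmb9, Tap1 and Psme2 had a pattern (all 4 lists) that 3 of the 29 pathway genes shared in 4 of 4 lists, namely Psmb6, Psme3 and Canx. It was found in 1009 protein-coding genes (4.61%). Psmb10, Psme1 and Tap2 had the H3K4 peak alone, as had 12 of the 29, among them Psmb7, Psme4, Pomp, Tapbp and Nlrc5, and 43.0% of protein-coding genes.

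The libraries were made from whole gonads, so signal at these genes may come from any of their cells. H3K4 peaks were in the windows of 4 of 4 Sertoli cell markers (Sox9, Amh, Dhh and Dmrt1), 2 of 5 Leydig cell markers (Star and Cyp11a1, not Cyp17a1, Hsd3b1 or Insl3) and 1 of 2 germ cell markers (Dazl, not Ddx4). They were also in the windows of 3 of 5 leukocyte markers (Ptprc, Spi1 and Cd68, not Csf1r or Adgre1) and 3 of 4 endothelial markers (Kdr, Cdh5 and Tek, not Pecam1). In all, 13 of the 20 markers (65%) had an H3K4 peak, close to the 63.1% of all protein-coding genes, so these counts do not tell which cell types were present. CREB peaks were at none of the 20 markers at E13.5, 1 at E16.5 (Cd68) and 1 at E18.5 (Cyp11a1), where 4.82%, 18.3% and 15.6% of protein-coding genes had one. The part of leukocytes and endothelial cells in the peaks of the 7 genes was not tested.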

How the data were processed

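CUT&RUN peak lists were used for CREB at E13.5, E16.5, E18.5 and for H3K4 at E18.5, grouped by antibody and stage from the titles, with 1 library each. The IgG library, whose labels disagree on its stage, was not analysed here. The deposited files give the chromosome, start and end of each peak and no score, fold or count. The build is mm10, and reads were handled with Trim Galore 0.6.10, with Bowtie2 2.5.2 and with MACS2, per the submitters' processing notes, which were read here without settings or control. Lists held 862, 3528 and 2957 CREB peaks and 21211 H3K4 peaks, nearly all 150, 630, 160 and 210 bp wide. Read depth is unknown.

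Gene ends came from RefSeq for GRCm38.p6, on which mm10 is based, and start sites and letters from its promoter table, in which Tap2 was not found. Where a gene has several starts, the distance of a peak is to the nearest. A peak counted when it overlapped a window by at least 1 bp; positions are 1-based, and midpoints are rounded down. Distances from the edge of a peak to a gene or a CRE core are differences of coordinates. Gaps between CREB and H3K4 peaks and between genes are the bases between them. The genes, lists and markers were chosen with earlier results of these data known. Named are the 7 genes, genes sharing their peaks, pathway genes with a CREB peak, and those whose presence in the 4 lists equals that of a member; H3K4-only and peakless pathway genes and cell type markers were named after their values were seen. The values of 1 pathway gene are not reported here. With 1 library per group no test was made. Python 3.11.15, numpy 2.4.6, pandas 2.3.3 and matplotlib 3.10.9 were used. In simulated lists on 21887 genes, 200 of 200 planted peaks were found at each of the 4 peak widths. They were planted inside the windows of genes, so this checks the counting alone and not how complete the lists are.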

Additional observations from a re-analysis of the deposited data

How the results depend on the processing

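Peaks at the same 4 genes (Psmb8, Psmb9, Tap1 and Psme2) made up the CREB count of 4 at every stage with windows of 1000 bp around the gene, within 1000 bp of a gene end, by peak midpoint and with all peaks set to 150 bp. With the gene body alone, 2 genes had a CREB peak at E13.5, then 3 at E16.5 and then 2 at E18.5, and 4 an H3K4 peak. With 10000 bp, Psme1 and Tap2 also counted, giving 6 genes at each stage. The share among all protein-coding genes was counted for the 3000 bp window with whole lists alone. Counts under the other settings given here therefore have no such share to be judged against. With the first 862 peaks of each list, Psmb8 was lost at E18.5, leaving 3 genes, and 2 genes had an H3K4 peak. Peaks joined by reciprocal overlap of 50% gave 6 regions in place of 3, because the E16.5 peaks are wider, and midpoints within 200 bp gave 4. An H3K4 peak was touched by 1, 3 and 2 of the 3 CREB peaks at E13.5, E16.5, E18.5 in turn, and its midpoint was within 1000 bp of 3 of 3 at each stage. The wider E16.5 peaks can touch a neighbour more easily. How many of all CREB peaks touch an H3K4 peak was not counted, so these counts have no share beside them either. For the 29 pathway genes, alternatives were chosen after seeing the data: with the first 862 peaks 4, 2 and 5 had a CREB peak and 4 an H3K4 peak, in place of 4, 14, 14 and 28, and with 1000 bp 3, 14, 14 and 28. No paired analysis was possible because each group holds 1 library and no result comes from a test.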
